A study of Mus musculus with 10 samples.

Results

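The Gata genes on autosomes, Gata2, Gata3, Gata4, Gata5 and Gata6, were examined for DNA methylation in mouse embryos at embryonic day 7.5. All 5 members were found in the RefSeq gene table. Each region took in the gene and 5000 bp on each side, and the 5 regions held 1580 of the 2137822 cytosine positions in the table. Methylation was measured by reduced representation bisulfite sequencing (RRBS), which reads CpG-rich fragments after unmethylated cytosines have been converted. A level is the share of calls at a cytosine that were methylated, and it averages over all cells in a sample.

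The series compared embryos of a control group with embryos of an arsenic group, 5 samples each. Both groups are labelled as whole embryos of the same age. Strain, the dose, route and time of the arsenic treatment, and the number of embryos per sample were not stated in the labels. The deposited table carries 10 sets of counts numbered 1 to 10, and no number names a group or a single sample. These sets are called library columns below, none was assigned to a group, and arsenic was not compared with control. Each value over the columns is given as the lowest, median and highest column, a spread that would hold both groups if the columns are the 10 samples.

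GATA factors are transcription factors that bind the sequence GATA through zinc fingers and often open closed chromatin for other factors. Gata2 acts in blood stem and progenitor cells, Gata3 acts in T cells, and both act in the trophoblast of the placenta. Gata4, Gata5 and Gata6 act in the heart and in endoderm, and Gata4 and Gata6 are required for the early extraembryonic endoderm. CpG-rich starts of such developmental genes are commonly free of methylation in the early embryo, whereas most other CpGs become methylated around implantation.

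RefSeq promoter entries of GRCm38.p6, the assembly that mm10 corresponds to, were matched for Gata2, which has 2 starts, Gata3 and Gata5, and not for Gata4 and Gata6. Every measured position in these entries lay at a CpG of the sequence. The 250 bases before the start are shown 5′ to 3′ for the 3 starts at which CpGs before the start were measured, because they show how few of the CpGs the values rest on. Capitals mark CpGs measured on at least 1 strand.
Gata2 first start, chr6:88193641-88193890, plus strand: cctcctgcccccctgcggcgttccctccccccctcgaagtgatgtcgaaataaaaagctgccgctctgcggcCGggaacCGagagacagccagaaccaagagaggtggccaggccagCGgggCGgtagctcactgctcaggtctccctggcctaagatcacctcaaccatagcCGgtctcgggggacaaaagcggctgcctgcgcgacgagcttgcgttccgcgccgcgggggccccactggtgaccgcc
Gata2 second start, chr6:88198414-88198663, plus strand: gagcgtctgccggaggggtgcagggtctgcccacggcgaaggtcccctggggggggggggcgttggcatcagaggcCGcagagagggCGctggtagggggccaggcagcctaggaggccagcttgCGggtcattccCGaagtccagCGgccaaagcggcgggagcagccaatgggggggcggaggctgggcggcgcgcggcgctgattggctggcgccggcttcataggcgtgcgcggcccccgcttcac
Gata3, chr2:9878601-9878850, minus strand: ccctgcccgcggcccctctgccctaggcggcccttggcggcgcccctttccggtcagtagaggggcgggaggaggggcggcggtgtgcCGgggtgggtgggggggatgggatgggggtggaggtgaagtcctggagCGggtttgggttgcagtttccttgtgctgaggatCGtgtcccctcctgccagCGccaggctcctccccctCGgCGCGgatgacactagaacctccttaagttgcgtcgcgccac

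The sequence before the first start of Gata2 held 22 CpGs, of which 5 were measured, and that before the second start held 24, of which 5 were measured. Before the Gata3 start, 7 of 19 CpGs were measured. Gata5 had 22 CpGs in the same stretch and none was measured, so its values come from after the start. Over the 31396 autosomal promoter entries the median was 6 CpGs. More CpGs than at the first start of Gata2 were found in 13.7% of entries, and 18.4% had more than Gata3. Each of the 3 printed sequences holds the letters CCGG 2 times and Gata5 holds them 3 times. CCGG reads the same on both strands, is the site of the enzyme MspI that is common in RRBS, and occurs in 47.8% of entries. The labels do not name the enzyme.

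Over the window of 1000 bp on each side, the annotated starts were weakly methylated, with no column above 7.89%. Shorter stretches could be higher in single columns, such as 11.2% in column 10 over the 300 bases at the first Gata2 start, where the other columns did not exceed 3.57%. In the window of 1000 bp on each side, the Gata3 start had a level of 1.54% (95% Wilson interval 1.42 to 1.67%, 82 positions, 36546 calls). Its columns ran from 0.581% over a median of 1.66% to 1.83%. The second start of Gata2 had 3.54% (interval 3.22 to 3.89%, 49 positions), with columns from 1.90% over 3.46% to 5.79%, but 1.505% when only positions with at least 20 reads in every column were kept. Its first start had 5.91% (interval 5.56 to 6.28%, 61 positions), with columns from 2.78% over 5.83% to 7.89%. Gata5 had 6.33% (interval 6.08 to 6.58%, 66 positions), with columns from 5.21% over 6.22% to 7.80%. The columns of Gata3 lay below those of every other start, though only just for the second Gata2 start, at 1.83% against 1.90%. With at least 20 reads in every column Gata3 had 1.72%, above the second Gata2 start. The columns of both Gata2 starts and of Gata5 overlapped one another, except that Gata5 and the second Gata2 start shared only the stretch from 5.21% to 5.79%.

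Such levels are common at annotated starts. Of 17254 autosomal windows with at least 3 measured positions, 73.7% were under 20%, and the median was 3.27%. Of these windows, 34.4% were lower than Gata3, 51.4% lower than the second Gata2 start, 58.9% lower than its first start and 59.9% lower than Gata5. Intervals here and below cover counting error only and take calls of the same read as independent, which makes them too narrow.

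The level was higher farther from the first start of Gata2. Up to 250 bp away it was 2.83%, over the next 250 bp 6.28% and over the last 500 bp of the window 8.27%, and single cytosines reached 37.2%. The ranges over the columns overlapped, at 0.578 to 11.9%, 2.31 to 10.7% and 4.25 to 13.5%. Around the Gata3 start the same 3 distances gave 1.46%, 1.91% and 1.27%, and no cytosine exceeded 14.5%. Around Gata5 they gave 4.71%, 4.62% and 7.44%, with a highest cytosine of 20.5%.

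**Figure D1:**
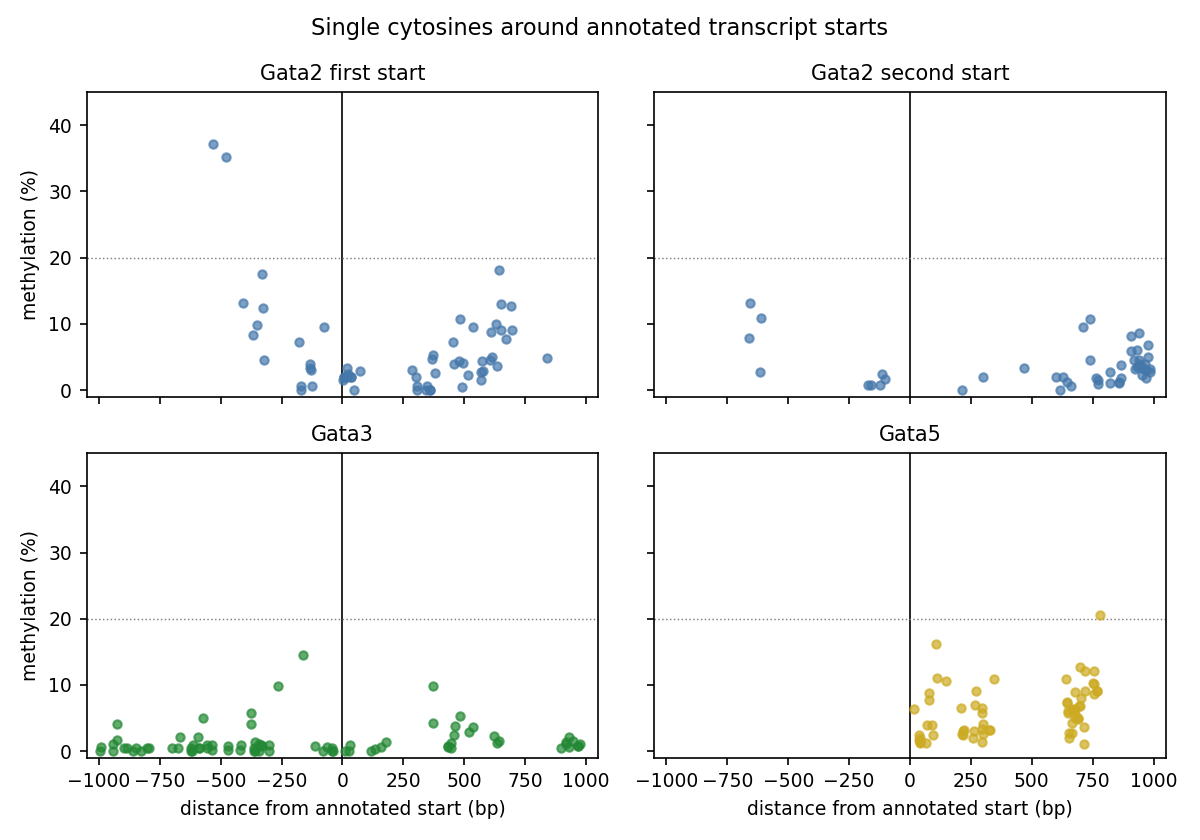
Methylation of single cytosines (percent, 10 columns summed) against the distance from the annotated start in bp, negative before the start, for 4 starts of Gata2, Gata3 and Gata5. The dotted line marks 20%. Most cytosines lie under it, Gata3 does not exceed 14.5%, and Gata5 has no measured cytosine before its start in this window.

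By summed calls, the whole regions differed mainly by Gata4. Gata3 had the lowest level, 12.9% (interval 12.8 to 13.1%, 451 positions, 205126 calls), with columns from 12.2% over 12.9% to 14.1%. Gata2 had 14.4% (interval 14.2 to 14.6%, 405 positions), with columns from 12.3% over 14.7% to 16.4%. Gata6 had 15.1% (interval 14.9 to 15.3%, 236 positions), with columns from 14.5% over 14.9% to 16.5%.

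Gata5 had 15.6% (interval 15.3 to 15.9%, only 97 positions), with columns from 13.6% over 15.7% to 17.8%. Gata4 was the highest at 26.1% (interval 25.8 to 26.3%, 391 positions), with columns from 24.9% over 26.1% to 27.6%. Every Gata4 column lay above every column of the other members, and within a column the gap to the next member was at least 7.49 percentage points. Gata3 was lower than Gata6 in 10 of 10 columns with ranges that did not overlap. The other neighbours in this order did not separate, since the ranges of Gata3 and Gata2, of Gata2 and Gata6 and of Gata6 and Gata5 overlapped.

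**Figure D2:**
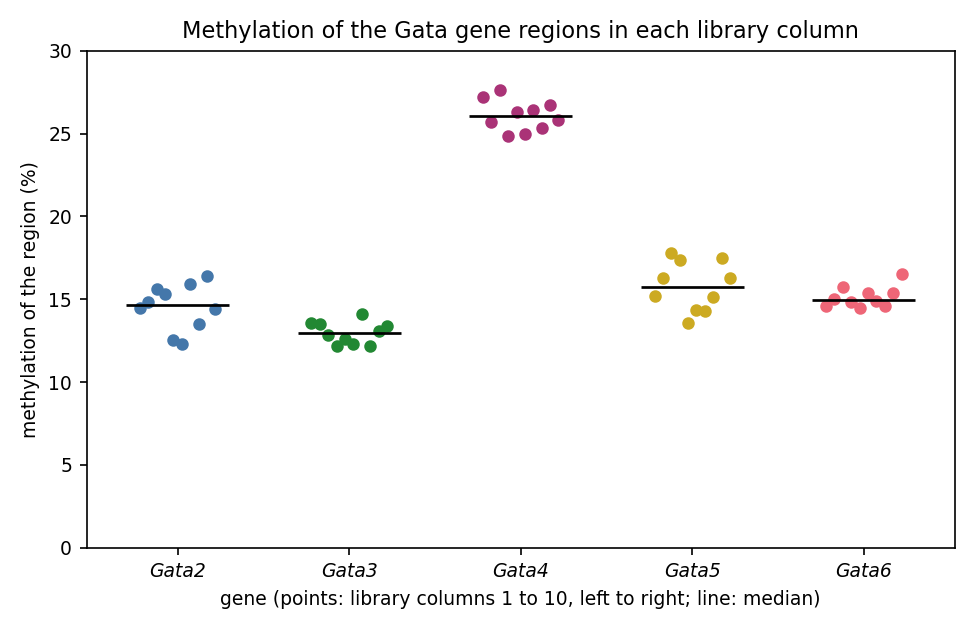
Methylation of the 5 Gata gene regions (percent) in library columns 1 to 10, drawn left to right within each gene, with the median as a line. All Gata4 points lie between 24.9% and 27.6%, above the highest point of the other genes, 17.8%.

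The order below Gata4 rested on how positions were counted. With only positions of at least 20 reads in every column, Gata5 was the lowest at 10.3%, over 43 positions. With each position weighted equally, Gata5 had 21.6% and Gata2 was the lowest at 12.5%. Gata4 had the highest region level under each of the alternatives run. By the median over tiles the order was another one. Gata5 was the highest at 51.4% over only 7 tiles, followed by Gata3 at 23.9% and Gata4 at 23.2%. Gata2 and Gata6 had 16.5% and 15.9%.

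The columns did not keep the same order from gene to gene. Column 9 was among the 5 highest columns in 5 of 5 regions, column 8 in 0 and columns 5 and 6 in 1 each. Over all autosomal positions the mean level was lowest in column 7, at 40.06%, and highest in column 1, at 42.7%, while column 9 had 42.1%. Columns 8, 6 and 5 were also low there, at 40.14%, 40.16% and 40.68%. Column 7 was nevertheless among the 5 highest columns in 3 of 5 regions. The summed coverage of a column ranged from 73509810 to 127743823 calls, and calls per column ranged from 11805 to 24438 in the regions of Gata2, Gata3 and Gata4. In the smaller regions of Gata5 and Gata6 they ranged from 2537 to 6471 and from 7096 to 12597.

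Along the genes, levels were described in tiles of 1000 bp with at least 3 measured positions. Of 82 such tiles in the 5 regions, 37 (45.1%) were under 20%, 44 between 20 and 80% and 1 above 80%. Over the columns, the share under 20% ranged from 45.1% to 50%, with a median of 47.6%. In the regions of all autosomal protein-coding genes, 22.8% of 130954 tiles were under 20%, 67.4% between 20 and 80% and 9.80% above. The same share was 30.4% in regions of 18 Sox genes, 31.3% in those of 9 Pax genes and 35.4% in those of 12 Tbx genes, all families of developmental transcription factors. By gene, it was 60% in Gata2 and Gata6, 42.9% in Gata3, 37.9% in Gata4 and 28.6% in Gata5, the last over only 7 tiles. Wilson intervals of the share, which take tiles as independent, were 34.8 to 55.9% for Gata and 24.7 to 36.8% for Sox. For Pax and Tbx they were 24.7 to 38.8% and 27.7 to 44.1%, so each family overlapped Gata. The median region level was 15.1% for Gata and 16.1% for Sox, against 22.3% for Pax and 21.2% for Tbx. No test was made between these sets, since tiles of a gene are not independent.

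**Figure D3:**
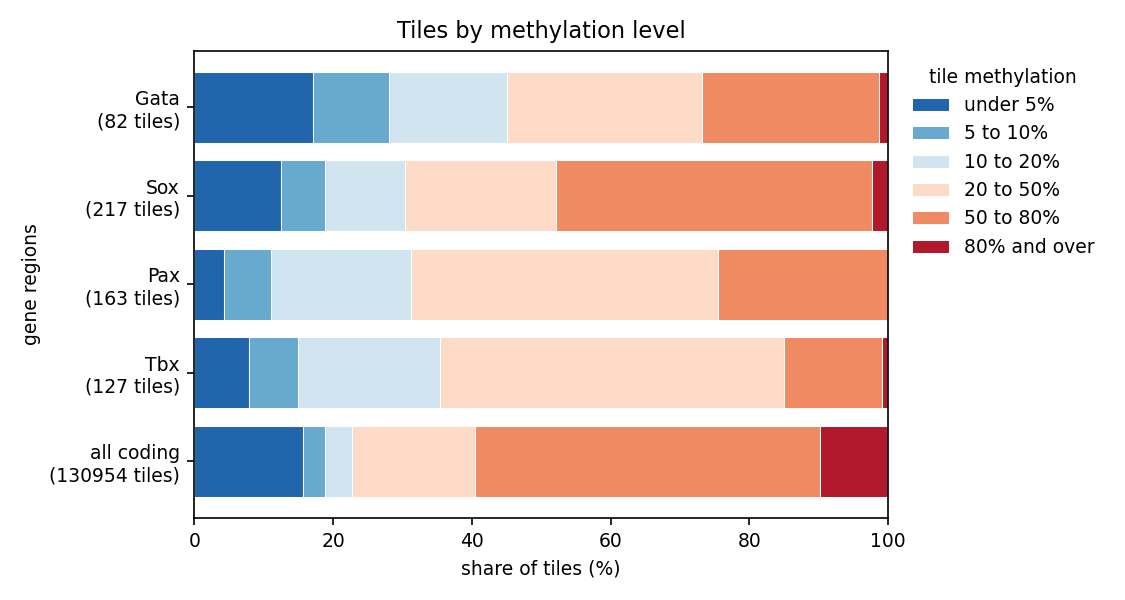
Share of 1000 bp tiles (percent) in 6 classes of methylation for the regions of the Gata, Sox, Pax and Tbx genes and of all autosomal protein-coding genes. Tiles under 20% (blue) make up 45.1% for Gata and 22.8% for all genes.

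The shares of Gata tiles and of all tiles differed by class. Tiles under 5% made up 17.1% of the Gata tiles and 15.7% of all tiles. From 5 to 10% there were 10.98% and 3.07%, and from 10 to 20% there were 17.1% and 4.01%. From 20 to 50% there were 28.0% and 17.6%, and from 50 to 80% there were 25.6% and 49.8%. The class from 10 to 20% was also larger than among all tiles for Sox, Pax and Tbx, at 11.5%, 20.2% and 20.5%. So was the class from 5 to 10%, at 6.45%, 6.75% and 7.09% in the same order. Among tiles with at least 10 measured positions, 63.0% of 46 Gata tiles and 42.6% of 56483 tiles of all genes were under 20%.

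Gata2, a regulator of blood stem cells, lies on chromosome 6 from 88193891 to 88207032 (mm10). Its lowest tile was not at a start but in the flank before the gene, from 88189000 to 88189999, where 72 positions had a level of 1.28% with columns from 0.714% over 1.19% to 2.70%. This tile lies within Gm38708, a long non-coding RNA gene on the opposite strand that also overlaps the first part of Gata2. Between this tile and the gene, the tile from 88191000 had 47.6%, with columns from 34.9% over 48.8% to 50.8%. The tile holding the first start had 7.60%, with columns from 3.67% over 7.01% to 13.9%.

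The 4 tiles that follow differed widely. The tile from 88194000 had 4.65% over 35 positions and that from 88197000 had 2.02% over 3. Between them, the tiles from 88195000 and 88196000 had 30.6% and 23.7%, with columns from 21.3% and 18.5% up to 41.9% and 28.4%. The tile from 88198000, which holds the second start, had 3.84%, and the next had 5.08%. The tile from 88200000 was higher at 16.5%, with columns from 11.4% over 16.6% to 20.9%. Further inside the gene, tiles with at least 3 positions had 13.9 to 21.0%, and after it the tile from 88209000 had 47.5% over 3 positions, close to the 47.6% in the other flank. That tile had the widest range over columns of the region, from 27.4% over 50.7% to 61.2%. No position was measured within 1000 bp of the 3′ end.

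Gata3, a regulator of T cells and trophoblast, lies on chromosome 2 from 9857078 to 9887953 on the minus strand. The tile at its 3′ end was the only one of the family above 80%, at 83.1%, with 4 positions and columns from 68.0% over 84.2% to 97.2%. Towards the annotated start at 9878600 the tiles were lower, in no strict order, with 62.2% at 9858000, 51.7% at 9862000, 55.4% at 9869000, 28.4% at 9871000 and 4.22% at 9877000. The lowest tile of the family, from 9879000 to 9879999 just before that start and still inside the RefSeq gene span, had 0.777% over 61 positions. Its columns ran from 0.413% over 0.833% to 1.32%.

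A narrow methylated tile divided this unmethylated stretch. The tile from 9880000 had 23.9% over 13 positions, with single cytosines from 5.52% to 33.5% and columns from 19.4% over 24.0% to 26.9%. The next tile, from 9881000, had 4.48% with columns from 1.88% to 8.54%, so the columns of the methylated tile overlapped neither neighbour. Beyond it, the tiles from 9882000 and 9883000 had 1.295% over 70 positions and 2.30% over 40 positions. These tiles lie in 4930412O13Rik, a long non-coding RNA gene on the plus strand whose span lies inside the Gata3 span. The shared stretch had 8.004% over 163 positions. A further weakly methylated tile, from 9889000, had 4.50% over 34 positions with columns from 2.17% to 7.52%.

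Gata4, a regulator of heart and endoderm, lies on chromosome 14 from 63198914 to 63271712 and had 2 unlike parts. In its lower-coordinate part, from 63201000 to 63233999, 11 tiles had 43.0 to 67.8% and together 60.7%, with columns from 58.1% over 60% to 65.1%. In the part from 63240000 to 63270999, 14 tiles had 8.27 to 28.0% and together 17.3%, with columns from 15.9% over 17.3% to 18.6%. Of these 14 tiles, 10 were under 20%. The border between the parts was set after the levels were seen.

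No tile inside Gata4 came down to the level of the Gata3 start. The most densely measured tile, from 63241000 with 94 positions, had 20.5%, with columns from 17.5% over 20.6% to 23.4%. The lowest tile inside the gene, from 63255000, had 8.27% over 32 positions, with columns from 5.95% over 7.68% to 14.4%. The lowest tile of the region was the incomplete tile at its outer edge, which lies in the neighbouring gene Neil2, a DNA repair glycosylase, and had 4.07% over 3 positions. In the Gata4 region 23.3% of positions were under 10%, against 51.1 to 65.4% in the other members. The lower-coordinate end of Gata4 had no measured position within 1000 bp, and the tile after the other end had 45.3%.

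Gata5, which acts in the heart and endoderm, lies on chromosome 2 from 180325088 to 180335503 on the minus strand and had the fewest measured positions, 97, and the fewest calls of the 5 members. Both tiles at the start, from 180333000 and 180334000, had 8.84% and 5.13%, with columns from 6.47% over 8.44% to 11.6% and from 4.29% over 5.09% to 5.85%. The 3 tiles further inside the gene had 50.4 to 65.4%, and the 2 tiles in the flank before it had 51.4% and 64.0%. The lowest column in these 5 tiles was 36.25%, so they overlapped the start tiles in no column. The start tiles overlap Gata5os, a long non-coding RNA gene on the plus strand, and the stretch shared with it had 10.4% over 80 positions.

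Gata6, required for primitive endoderm and heart, lies on chromosome 18 from 11052510 to 11085636. The 4 tiles from 11052000 to 11055999, at its lower-coordinate end, had 2.93%, 7.58%, 2.88% and 8.59%, and together 5.69% over 130 positions. Together their columns ran from 3.98% over 5.62% to 7.37%. The flank before this end, which holds part of the long non-coding RNA gene Gata6os, had 16.3% over 60 positions, with columns from 14.1% over 16.4% to 18.8%. Inside the gene the tiles from 11058000 and 11059000 had 21.8% and 22.2%, and those from 11064000 and 11083000 had 64.3% and 63.2%. The tile from 11059000 had columns from 11.6% over 23.6% to 28.7%.

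**Figure D4:**
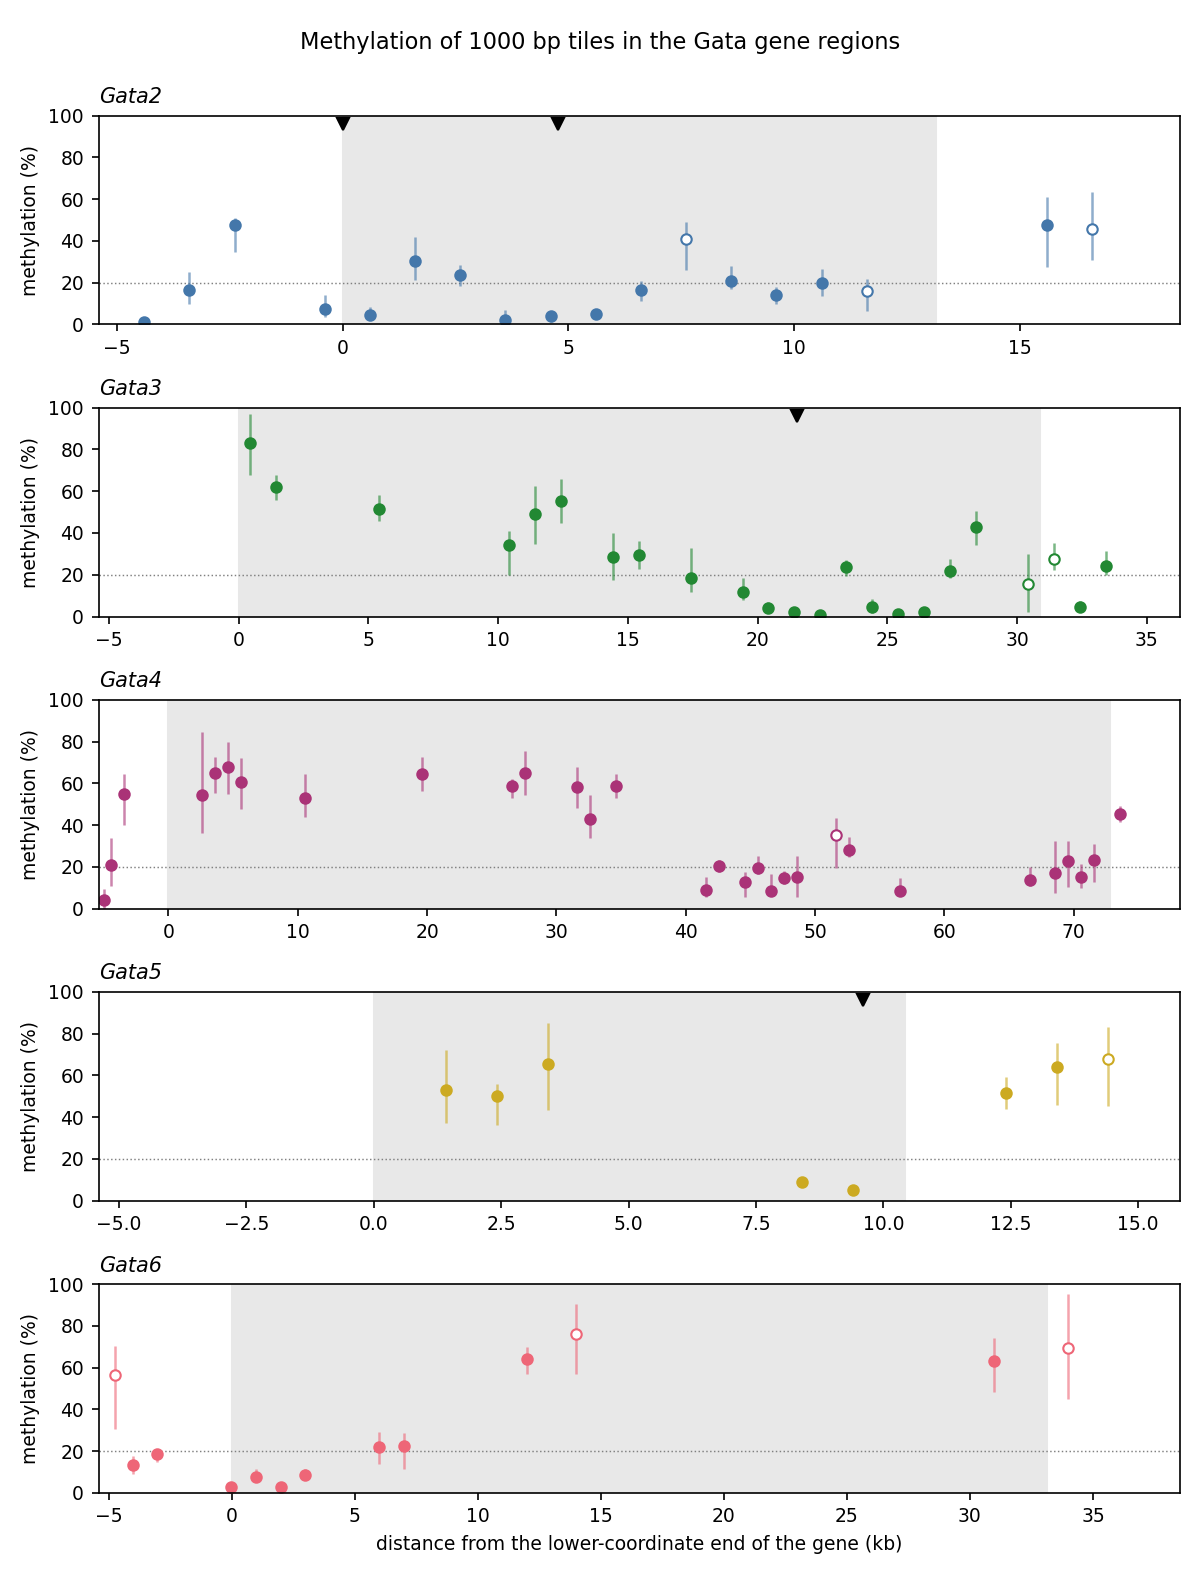
Methylation of 1000 bp tiles (percent, 10 columns summed) against the distance in kb from the lower-coordinate end of each gene. Grey is the gene, triangles are annotated starts, bars run from the lowest to the highest column, open circles have under 3 positions, and the dotted line marks 20%. Low tiles cluster at the starts of Gata2, Gata3 and Gata5 and at the lower-coordinate end of Gata6, and Gata4 changes from 60.7% to 17.3% between its parts.

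The range over columns in percentage points was wider in thinly covered tiles. The range over columns within a tile was 0.684 to 48.4 percentage points, with a median of 11.6 points, and 14.9 points over tiles of all genes. Its widest value was in the Gata4 tile from 63201000, where 3 positions ran from 36.0% over 49.6% to 84.4% with 36 to 67 calls per column. As a description across the 82 tiles, which share the same libraries, the range was smaller with more calls (Spearman's rho -0.78). The level was lower with more measured positions (rho -0.57). Within genes this rho was from -0.87 over the 7 tiles of Gata5 to -0.17 over the 29 tiles of Gata4. Low levels leave less room for a range in points, and the parts of level and of calls in the range were not separated.

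The spread between columns was also set against counting alone. The chi-square of methylated against unmethylated calls over columns, divided by its degrees of freedom, is near 1 if columns differ by counting alone and if all calls are independent. It was above 1 in all 82 tiles, with a median of 4.94 and a highest value of 18.4 in the Gata6 tile from 11059000. In the Gata4 tile from 63201000, which had the widest range in points, it was 5.28. Over the tiles of all protein-coding genes its median was 3.99, and 127827 of 130954 tiles were above 1, so the Gata tiles were near the background. Several calls can come from 1 read, which raises this value by itself, and the part that group, embryo and read each have in it was not tested.

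**Figure D5:**
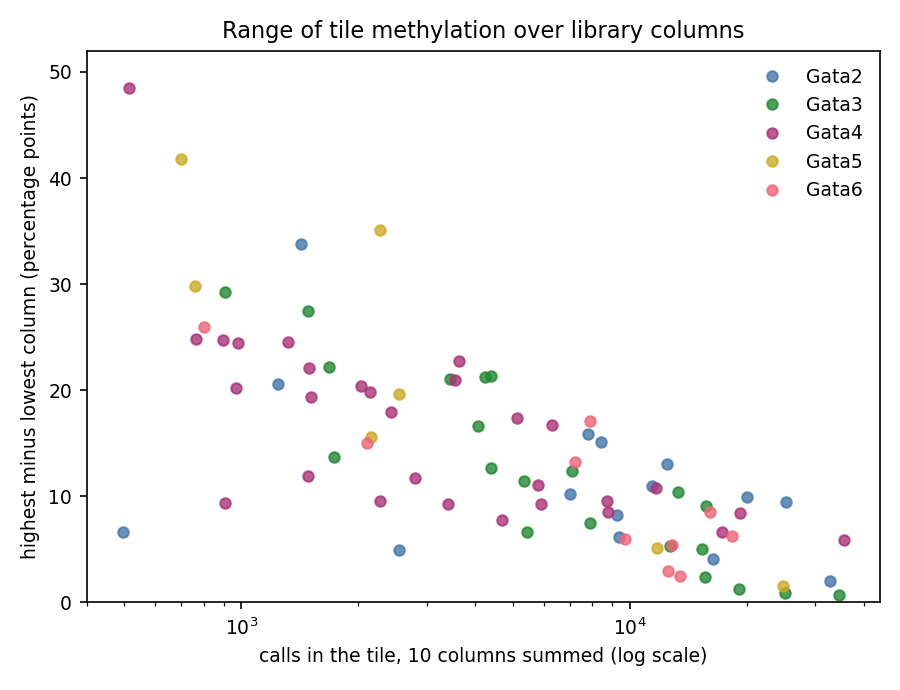
Highest minus lowest library column (percentage points) for each 1000 bp tile with at least 3 positions, against its calls summed over the 10 columns (log scale), by gene. Ranges reach 48.4 points in tiles with few calls and are as small as 0.684 points in densely covered ones.

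A mixed list was measured by the same region rule. It held partners of GATA factors, other genes with GATA-type zinc fingers and lineage genes such as Afp, so its values do not describe partners alone. All 36 listed genes had a tile, and their median region level was 20.3%. Of these regions, 17 lay below 20% and the other 19 did not reach 80%. Of the 5 members, 4 were under 20% and their median was 15.1%. Of all 17789 autosomal protein-coding regions with a tile, 26.2% were under 20%, and the median was 36.8%. The lowest listed regions were Cdx2, a trophoblast and caudal homeobox factor, at 3.06%, Eomes, a T-box factor of trophoblast and primitive streak, at 4.10%, and Tal1, a blood factor that binds with GATA factors, at 6.06%. The highest were Zglp1, a GATA-like zinc finger gene of the germ line, at 72.3%, Hnf4a, a hepatocyte and visceral endoderm factor, at 58.7%, and Afp, the yolk sac alpha-fetoprotein, at 51.6%. The cofactors Zfpm1 and Zfpm2, known as FOG proteins, had 34.1% and 27.0%.

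Genes with a like profile over the zones of gene and flanks were sought among autosomal protein-coding genes. The measure was the mean absolute difference in level over 4 zones. For Gata2 the nearest of 1719 genes were Cacng7, Bmp4 and Myorg, at 3.17, 3.53 and 3.68 percentage points, against a median of 27.9 points. The zone at the 3′ end was left out, because Gata2 has no measured position there. In that zone Cacng7 had 5.91% and Bmp4 71.2%, and Myorg had too few positions. The compared flank after Gata2 rests on 4 positions, with columns from 30.6% to 61.7%. For Gata4 the nearest of 1663 genes were F12, Urad and Thy1, at 4.63, 4.78 and 5.51 points, against a median of 28.9 points. Its zone at the lower-coordinate end had no measured position and was left out. The zone inside Gata4, at 25.5%, pools its unlike parts of 60.7% and 17.3%. Its zones at and after the higher-coordinate end rest on 4 and 8 positions. Gata3, Gata5 and Gata6 had 3 zones each with at least 3 measured positions, too few for this comparison. For Gata3 the start zone lay at the end of its RefSeq span, with 2 positions. It did not lie at the annotated start at 9878600, which had 82 positions within 1000 bp. For Gata4 the zones of all genes were taken in genome order, because its strand was not read from the sources used, so this ranking does not compare starts with starts.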

How the data were processed

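RRBS libraries were made from DNA of 10 samples. Trim Galore, Bismark and methylKit, with the build mm10, are listed in the submitters' processing notes, and neither a label nor a header gives their versions or settings. Unnormalized counts were deposited by the authors as coverage, methylated reads and unmethylated reads per cytosine position and column, per the file headers. No position had a coverage under 10 in any column, and the 10 columns could not be tied to samples by name. The planned comparison of the groups was therefore not run. Of 2137826 rows, 4 at repeated positions were left out. A level is summed methylated calls over summed coverage.

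Gene spans come from the RefSeq table of GRCm38.p6, which gives no exons. Tiles start at multiples of 1000 bp. Named tiles are those at gene ends, the lowest, the highest and the one with the widest range over columns; other tiles were chosen after their values were seen. Like genes are the 3 nearest by zone profile that do not overlap the member. Of the mixed list of partners and lineage genes, the lowest, the highest and the cofactors are named. The members and lists were chosen with earlier results of these data known. The functions were tested on simulated data, where 1600 of 1600 tiles fell on the right side of 20%. The largest error was 2.06 points, and no simulated level lay that near 20%. The simulated calls were independent and every tile was densely covered. How real tiles near 20% or with few positions are classed was therefore not tested. The software was pandas 2.3.3, scipy 1.17.1, numpy 2.4.6 and matplotlib 3.10.9 under Python 3.11.15.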

Additional observations from a re-analysis of the deposited data

Results flagged for a closer look

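In 6 of 45 region, tile and start values, 1 library column lay far from the other 9 by Dixon's criterion, which chance alone meets in about 1 of 20 groups. Some of the 45 values share positions. The 300 bases around the first start of Gata2 had 11.2% in column 10, against 0.617 to 3.57% in the others. There, the 9 positions after the start gave 31 methylated of 117 calls at 8 of the 9 positions in that column, and without it the level was 2.15% in place of 2.83%. The 300 bases around the second start had 8.92% in column 6, against 0 to 4% in the others, from 14 of 157 calls over 5 positions. Without column 6 its level was 0.184% in place of 1.29%. Whether these calls come from few reads was not tested.

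The Gata2 flank tile from 88189000 had 2.70% in column 3, against 0.714 to 1.65% in the others. Its neighbour from 88191000 had 34.9% in column 5, against 46.0 to 50.8%. The tile after the gene, from 88209000, had 27.4% in column 6, against 44.7 to 61.2%, over 3 positions. The window of 1000 bp on each side of the Gata3 start had 0.581% in column 6, against 1.26 to 1.83%.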

How the results depend on the processing

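No paired analysis was possible because the columns carry no sample names, so the replicate numbers of the labels could not be used. With at least 20 reads in every column the levels became 16.8% for Gata2, 13.1% for Gata3, 10.3% for Gata5 and 16.2% for Gata6. With 2000 bp on each side they were 15.2%, 12.6%, 13.1% and 14.7% in the same order. With each position weighted equally, Gata2 had 12.5%, Gata3 14.05%, Gata4 27.7%, Gata5 21.6% and Gata6 14.2%. Without the top 1% of covered positions Gata2 had 12.7% and Gata4 26.4%. Leaving out a column in turn gave 14.2 to 14.7% for Gata2. The share of tiles under 20% was 63.0% with at least 10 positions per tile. The other planned settings stayed within the 95% interval of the reported value for the regions and the tile share. Around the second Gata2 start, 20 reads gave 1.505% in place of 3.54%, and leaving out column 1 gave 3.16%. The other starts also left their intervals with 20 reads, at 1.72% for Gata3, 5.36% for the first Gata2 start and 6.87% for Gata5. Equal weights gave 6.07% for Gata5. The cause of these shifts was not tested. Gata5 rests on 97 measured positions, fewer than any other member, and 43 of them had at least 20 reads in every column.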
